A study of Mus musculus with 8 samples.

Results

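A set of 10 integrin genes was followed as alpha and beta partners: Itga2, Itga3, Itga5, Itga6 and Itgav for alpha subunits, and Itgb1, Itgb4, Itgb5, Itgb6 and Itgb7 for beta subunits. They were listed by gene symbol and matched to the count table, where all 10 of 10 were found among 21240 genes. All 10 passed the filter on low counts, which 55.7% of the genes in the table (11835) passed. The 10 were chosen with earlier results of these data known, so this contrast is not a finding about integrin genes. The cells were NMuMG, an established line of mouse mammary gland epithelium with a wild-type genotype, grown in serum with insulin. They were given the solvent DMSO or BRM014, which blocks the ATPases SMARCA4 and SMARCA2, the motor subunits of SWI/SNF chromatin remodelling complexes. The 4 groups were DMSO for 6 h, DMSO for 30 h, BRM014 for 6 h and BRM014 for 30 h, with 2 libraries each, and the labels do not state a dose. All libraries came from 1 cell line, and the labels call the replicates biological without saying whether they were separate cultures or days. The p-values therefore measure the spread between these libraries, which may in part be technical.

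Integrins are transmembrane receptors made of 1 alpha and 1 beta chain, and only assembled pairs are delivered to the cell surface. The pair sets the ligand: in mammary epithelium the alpha2 beta1 pair binds collagen, alpha3 beta1, alpha6 beta1 and alpha6 beta4 bind laminin in the basement membrane, alpha5 beta1 binds fibronectin, and alphav pairs bind proteins with an RGD motif such as vitronectin and the latent form of TGF-beta. Beta1 is shared by many alpha chains, so transcript levels of partners are read together, although transcript counts do not measure receptors at the surface.

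Promoter sequences are shown for 4 genes chosen after their values were seen, to set the windows of Itgb7 and Itgb6, which were lower with BRM014 at both times, beside those of Itga2, which was lower at 6 h and higher at 30 h, and Itgb5, which was higher at both. They come from RefSeq on build GRCm38.p6 and run from 250 bases before to 50 bases after an annotated start, 5' to 3' on the strand of the gene. Capitals mark GGGCGG or its reverse complement CCGCCC, the GC box read by Sp and KLF factors. The windows are chr15:102231886-102232185 on the minus strand for Itgb7, chr2:60722554-60722853 on the minus strand for Itgb6, chr13:114932051-114932350 on the minus strand for Itga2 and chr16:33829415-33829714 on the plus strand for Itgb5.
Itgb7: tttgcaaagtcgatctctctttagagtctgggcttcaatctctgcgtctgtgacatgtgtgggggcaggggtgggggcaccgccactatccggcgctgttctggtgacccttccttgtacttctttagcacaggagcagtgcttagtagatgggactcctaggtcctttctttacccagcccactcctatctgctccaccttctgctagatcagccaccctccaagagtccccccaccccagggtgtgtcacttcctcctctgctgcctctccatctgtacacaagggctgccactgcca
Itgb6: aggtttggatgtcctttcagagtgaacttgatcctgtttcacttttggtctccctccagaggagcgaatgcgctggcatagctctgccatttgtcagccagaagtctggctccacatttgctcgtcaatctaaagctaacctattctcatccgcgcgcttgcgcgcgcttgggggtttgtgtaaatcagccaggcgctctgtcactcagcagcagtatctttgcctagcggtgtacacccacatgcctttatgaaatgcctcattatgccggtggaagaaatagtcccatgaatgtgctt
Itga2: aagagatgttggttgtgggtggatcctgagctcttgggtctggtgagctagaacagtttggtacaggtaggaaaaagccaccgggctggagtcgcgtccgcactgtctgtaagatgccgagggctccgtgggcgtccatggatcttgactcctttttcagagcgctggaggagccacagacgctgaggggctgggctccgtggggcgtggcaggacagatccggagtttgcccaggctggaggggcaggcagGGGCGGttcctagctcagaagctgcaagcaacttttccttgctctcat
Itgb5: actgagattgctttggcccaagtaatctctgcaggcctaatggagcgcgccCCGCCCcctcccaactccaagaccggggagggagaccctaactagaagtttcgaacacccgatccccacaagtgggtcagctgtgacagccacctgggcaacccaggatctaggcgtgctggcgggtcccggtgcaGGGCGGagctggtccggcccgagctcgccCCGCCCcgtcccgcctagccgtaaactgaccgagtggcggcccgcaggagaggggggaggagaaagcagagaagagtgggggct
The GC content of these windows was 56.3% for Itgb7, 50.3% for Itgb6, 59.3% for Itga2 and 65.7% for Itgb5. The other annotated window of Itgb6, chr2:60673644-60673943 on the minus strand, is not printed and had 38.3%. The median over 32851 promoter windows of the same length was 52.7%, with quartiles of 45.7% and 61.7%. The Itgb5 window held 3 GC boxes and the Itga2 window 1, whereas none was found in the window of Itgb7 or in either window of Itgb6. Promoter entries were found for 8 of the 10 genes, with 10 windows in all. Itga6 and Itgb4 had no entry, so Itgb4, which was also called lower at both times, could not be examined. Over both strands, GGGCGG was in 7 of these 10 windows (Itga2, Itga3 with 2 windows, Itga5, Itgav, Itgb1 and Itgb5) and in 35.7% of all windows. Genes with the box thus went in different directions: at 6 h Itga2, Itga3 and Itga5 were called lower and Itgb5 higher, and Itgav and Itgb1 were not called. The AP-1 motif TGANTCA was in 1 window, of Itga3, and in 7.81% of all windows. The motif CACCTG, an E-box of the Zeb and Snail type, was in 3 windows and in 20.2% of all: 1 of the windows of Itga3, that of Itgb5 and the Itgb6 window that is not printed. Of the other motifs searched, GGAATG (TEAD) was in the Itgb1 window and in 14.7% of all, CCAAT was in 1 Itga3 window and in 37.4% of all, and TATAAA was in none of the 10 windows and in 13.6% of all. A match or its lack describes these letters in this window only, and no binding data were used here.

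The libraries held 17859693 to 29955366 counts. Levels are given in CPM, the count of a gene relative to its library total after scaling by the trimmed mean of M-values (TMM). Changes are given as log2 fold changes with their standard error (SE), and genes were called at adjusted p-values below 0.05 by edgeR's quasi-likelihood test with Benjamini-Hochberg adjustment over all tested genes. Of 12 epithelial markers, 6 passed the filter on low counts, and Epcam, Cldn3 and Cldn7 had 0 counts in every library. The summed level of the 12 was 5970 to 6560 CPM in the DMSO libraries, 5680 to 6290 CPM with BRM014 at 6 h and 7640 to 8890 CPM with BRM014 at 30 h. Most of the sum was Krt8 and Krt18, keratins of simple epithelium, with means of 2709 and 4105 CPM in BRM014 at 30 h, where both rose (0.67 and 0.79). Krt19 and the junction gene Jup went the other way and fell at both times (-1.08 and -0.87 at 6 h, -0.87 and -1.01 at 30 h). The part of these shifts in the integrin results was not tested. Endothelial markers summed to at most 0.821 CPM and fibroblast markers to at most 2.77 CPM in a library. In bulk RNA, fewer cells of a type and less RNA per cell cannot be told apart.

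With BRM014 at 6 h, 7 of the 10 integrin genes fell and 1, Itgb5, rose. Among all tested genes 14.4% were called lower and 9.35% higher. The median log2 fold change of the 10 was -0.87, against -0.012 over all tested genes. At 30 h, 3 of the 10 were called lower and 5 higher, against 19.1% and 16.8% of all tested genes, with a median of 0.27 against -0.005. Among the alpha chains, 4 of 5 fell and none rose at 6 h, while none fell and 3 of 5 rose at 30 h. Among the beta chains, 3 fell and 1 rose at 6 h, and 3 fell and 2 rose at 30 h. The difference between the effects was tested directly, and 6 of the 10 genes, among them all 5 alpha chains, had a higher log2 fold change at 30 h than at 6 h, while 1 had a lower one. In this test 3.89% of all genes were called higher and 2.59% lower. Because the 10 genes were chosen with earlier results of these data known, the contrasts with all tested genes are descriptions only.

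**Figure D1:**
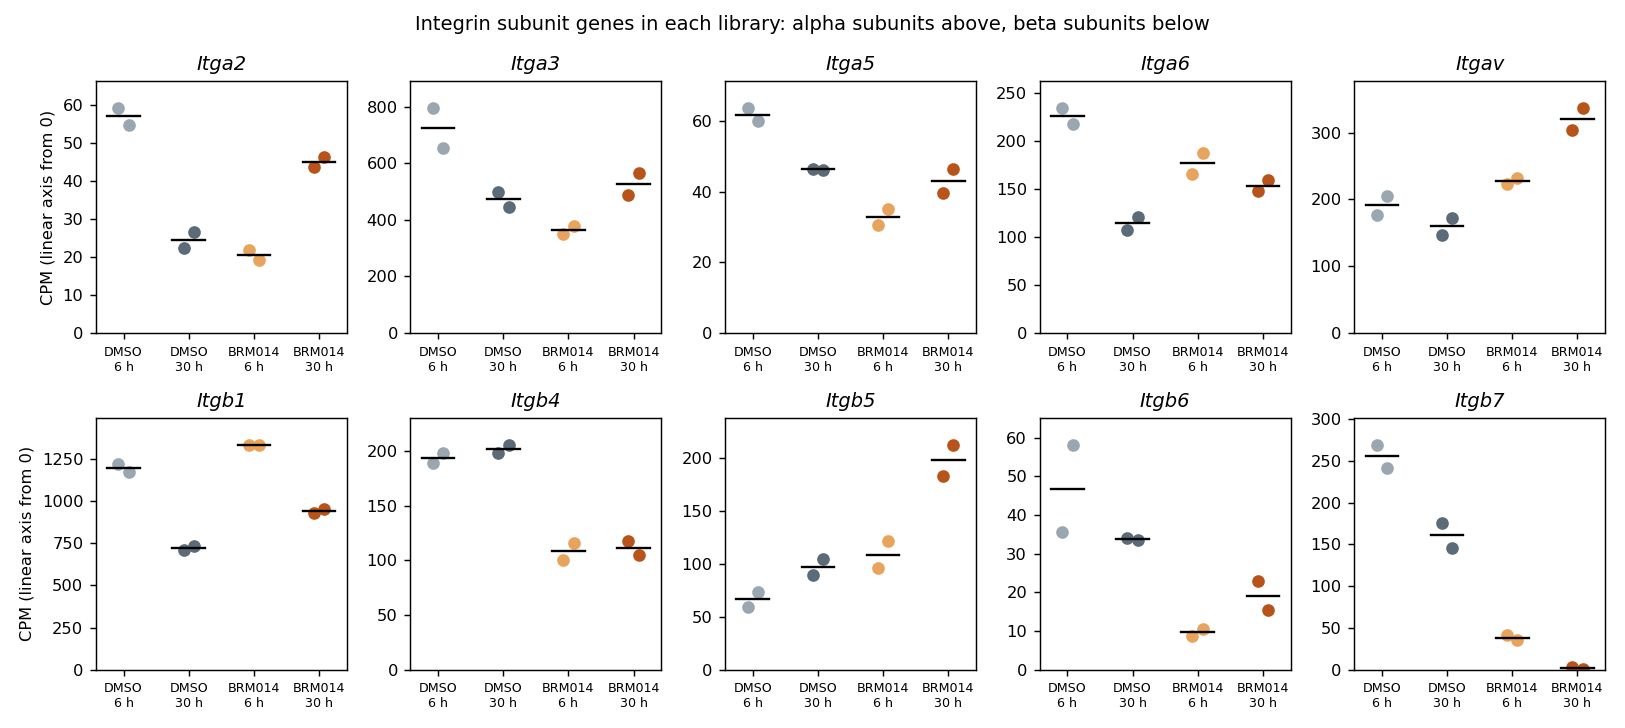
CPM of each of the 10 integrin genes in every library, by treatment and time, on linear axes that start at 0. Points are libraries and lines are group means. Itgb7 runs from 269.4 CPM in a DMSO 6 h library to 1.401 CPM in a BRM014 30 h library, whereas the groups of Itga3 and Itga5 stand apart at 6 h and overlap at 30 h.

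Itga2, the alpha chain of the collagen receptor alpha2 beta1, measured 59.11 and 54.68 CPM with DMSO at 6 h and 22.45 and 26.43 CPM with DMSO at 30 h. With BRM014 it measured 21.71 and 19.18 CPM at 6 h and 43.66 and 46.28 CPM at 30 h. Both BRM014 libraries were below both DMSO libraries at 6 h, and both were above them at 30 h. Itga2 fell by 1.48 on the log2 scale at 6 h (SE 0.12, adjusted p = 2.21e-06) and rose by 0.88 at 30 h (SE 0.12, adjusted p = 8.88e-05). The DMSO level itself fell by 1.22 between 6 h and 30 h (adjusted p = 2.38e-05), while the BRM014 level rose by 1.14 (adjusted p = 2.75e-05), so the time courses crossed. The difference of the effects was 2.36 ± 0.17 (SE, adjusted p = 1.38e-05).

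Itga3, the alpha chain of the laminin receptor alpha3 beta1, was the most abundant alpha chain. It measured 794.9 and 652.6 CPM in DMSO and 348.2 and 376.6 CPM in BRM014 at 6 h, and 499.7 and 444.9 CPM in DMSO and 488.4 and 563.9 CPM in BRM014 at 30 h. The groups stood apart at 6 h and overlapped at 30 h. Itga3 fell by 1.00 at 6 h (SE 0.12, adjusted p = 3.71e-05) and did not pass the test at 30 h (log2 fold change 0.16, 95% interval -0.09 to 0.40). Itga5, the chain of the fibronectin receptor, was less abundant. At 6 h it measured 63.79 and 60.04 CPM in DMSO and 30.69 and 35.26 CPM in BRM014, and at 30 h 46.64 and 46.34 CPM in DMSO and 39.59 and 46.37 CPM in BRM014. It fell by 0.91 at 6 h (SE 0.12, adjusted p = 8.15e-05), and at 30 h the groups overlapped (-0.11, 95% interval -0.36 to 0.14). For both genes the difference of the effects passed the test, at 1.15 for Itga3 (adjusted p = 0.000986) and 0.80 for Itga5 (adjusted p = 0.0104). The call for Itga5 was lost without library 1 of DMSO 6 h (0.72, adjusted p = 0.0615), library 1 of BRM014 6 h (0.70, 0.0715) or library 2 of BRM014 30 h (0.68, 0.0525).

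Itga6, the laminin-binding chain that pairs with beta1 or beta4, measured 234.5 and 218.1 CPM in DMSO and 165.7 and 187.7 CPM in BRM014 at 6 h. At 30 h it measured 107.4 and 121.3 CPM in DMSO and 147.6 and 159.7 CPM in BRM014. BRM014 libraries were the lower ones at 6 h and the higher ones at 30 h, without overlap. The gene fell by 0.36 on the log2 scale at 6 h (SE 0.10, adjusted p = 0.0215) and rose by 0.43 at 30 h (SE 0.10, adjusted p = 0.00569). The 6 h call was lost without library 1 of DMSO 6 h (-0.27, adjusted p = 0.173), without library 1 of BRM014 6 h (-0.27, 0.222), with scaling by library totals (-0.27, 0.0534) and with scaling by ribosomal protein genes (-0.30, 0.176). The difference of the effects was 0.78 ± 0.14 (SE, adjusted p = 0.00575).

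Itgav, the chain of the RGD-binding receptors, was the alpha gene with the largest rise at 30 h. It measured 177.1 and 205.2 CPM in DMSO and 222.7 and 231.7 CPM in BRM014 at 6 h, and 146.6 and 172.6 CPM in DMSO and 304.6 and 336.9 CPM in BRM014 at 30 h. The BRM014 libraries were above the DMSO libraries at both times, by a wide margin at 30 h. The 6 h value missed the threshold (0.25, adjusted p = 0.118, 95% interval 0.015 to 0.483 before adjustment), and passed it without library 2 of DMSO 30 h (0.28, adjusted p = 0.0496), with library totals (0.33, 0.0367) and with only the 6 h libraries in the fit (0.27, 0.0412). The rise at 30 h was 1.01 ± 0.11 (SE, adjusted p = 1.14e-05). The effects differed by 0.76 (SE 0.15, adjusted p = 0.0101), a call lost without library 1 of BRM014 6 h (0.73, 0.0616), without library 2 of BRM014 30 h (0.69, 0.0508) and with ribosomal protein scaling (0.79, 0.0965).

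Itgb1, the common beta chain, measured 1216 and 1174 CPM in DMSO and 1333 and 1330 CPM in BRM014 at 6 h, and 707.6 and 730.3 CPM in DMSO and 926.7 and 949.6 CPM in BRM014 at 30 h. BRM014 libraries were the higher ones at both times. The 6 h value did not pass the test (0.16, adjusted p = 0.201, 95% interval -0.02 to 0.33) but did so with library totals (0.24, adjusted p = 0.0359), and the gene rose by 0.38 at 30 h (SE 0.08, adjusted p = 0.00286). The effects were not called different (0.23, adjusted p = 0.305). The level of Itgb1 fell between 6 h and 30 h in both treatments, by 0.73 in DMSO (adjusted p = 5.69e-05) and by 0.50 in BRM014 (adjusted p = 0.000564).

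Itgb4, the beta chain of the hemidesmosome, which anchors epithelium to laminin, was lower by nearly the same amount at both times. It measured 189.3 and 198.2 CPM in DMSO and 100.5 and 116.3 CPM in BRM014 at 6 h, and 197.8 and 205.8 CPM in DMSO and 117.5 and 105.0 CPM in BRM014 at 30 h. It fell by 0.84 at 6 h (SE 0.10, adjusted p = 5.4e-05) and by 0.86 at 30 h (SE 0.10, adjusted p = 2.3e-05), and the difference of the effects was -0.02 (95% interval -0.33 to 0.28). In GENCODE, 537 bases of its merged exons (8.41%) overlap the antisense gene B230344G16Rik, and whether the counting used strand is not stated in the labels or processing notes.

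Itgb5, the beta chain of the vitronectin receptor alphav beta5, rose at both times. It measured 59.16 and 73.86 CPM in DMSO and 96.32 and 121.4 CPM in BRM014 at 6 h, and 89.9 and 105.0 CPM in DMSO and 183.2 and 212.9 CPM in BRM014 at 30 h. The groups did not overlap at either time. The rises were 0.71 at 6 h (SE 0.14, adjusted p = 0.00231) and 1.02 at 30 h (SE 0.14, adjusted p = 7.75e-05), with a difference of 0.31 that did not pass the test (95% interval -0.11 to 0.73). Unlike any other of the 10 genes, Itgb5 was called higher over time in DMSO too (0.55, adjusted p = 0.00866), a call lost without library 1 of DMSO 6 h (0.42, 0.0872).

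Itgb6, the epithelial beta chain of alphav beta6, which binds and activates latent TGF-beta, measured 35.53 and 58.17 CPM in DMSO and 8.827 and 10.44 CPM in BRM014 at 6 h. At 30 h it measured 34.13 and 33.65 CPM in DMSO and 22.85 and 15.51 CPM in BRM014. BRM014 libraries were lower at both times, with a wider gap at 6 h. Itgb6 fell by 2.28 at 6 h (SE 0.23, adjusted p = 1.13e-05) and fell by 0.83 at 30 h (SE 0.22, adjusted p = 0.00848), a call lost without library 2 of BRM014 30 h (-0.56, adjusted p = 0.115). The difference of the effects was 1.44 ± 0.31 (SE, adjusted p = 0.014). It missed the threshold without library 2 of DMSO 6 h (1.06, adjusted p = 0.0508), library 1 of BRM014 6 h (1.33, 0.0725) or library 1 of BRM014 30 h (1.15, 0.0601).

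Itgb7, known as the beta chain of the lymphocyte homing receptors alpha4 beta7 and alphaE beta7, had the largest change of the 10 at both times. It measured 269.4 and 242.0 CPM in DMSO at 6 h, 176.0 and 145.5 CPM in DMSO at 30 h, 41.16 and 35.21 CPM in BRM014 at 6 h, and 3.05 and 1.401 CPM in BRM014 at 30 h. The last values rest on 57 and 43 counts, against 3238 and 3326 in the DMSO 30 h libraries. Itgb7 fell by 2.74 at 6 h (SE 0.17, 6.7-fold, adjusted p = 2.67e-07) and fell by 6.27 at 30 h (SE 0.23, 77.3-fold, adjusted p = 1.01e-09). When single libraries were left out, the 30 h value ranged from -6.83 to -5.71. Itgb7 was the only one of the 10 whose log2 fold change was called lower at 30 h than at 6 h, with a difference of -3.53 (SE 0.28, adjusted p = 2.25e-05).

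The known partners of Itgb7 were nearly uncounted. Itga4 had 1 count in library 2 of DMSO 30 h and 0 in the other 7 libraries, and Itgae had 1 to 8 counts per library, so neither was tested. Leukocyte markers were counted at low levels in the same libraries: of 14 in the table, 4 had 0 counts in all libraries, 2 could be tested, and Ptprc had at most 2 counts. Their summed level was 9.0 to 10.8 CPM in DMSO at 6 h, 11.9 to 12.9 CPM in DMSO at 30 h, 4.26 to 6.14 CPM in BRM014 at 6 h and 2.57 to 2.84 CPM in BRM014 at 30 h, and most of this sum came from Cd68 and Lcp1. The actin-bundling gene Lcp1 fell by 2.42 at 6 h (adjusted p = 0.004) and by 4.80 at 30 h (adjusted p = 7.99e-06). The lowest Itgb7 level in a DMSO library was 145.5 CPM, and the highest summed level of these markers was 12.9 CPM. These levels are not adjusted for gene length, and which cells the Itgb7 counts came from was not tested. Cd68, the other tested leukocyte marker, was not called at 6 h and was called lower at 30 h. The summed level of 7 myoepithelial markers was also lower with BRM014. It was 9.36 to 13.0 CPM in DMSO at 6 h and 3.63 to 8.59 CPM in DMSO at 30 h. With BRM014 it was 0.981 to 2.41 CPM at 6 h and 0.0978 to 0.321 CPM at 30 h. In the DMSO libraries most of this sum was Krt14, the only one of the 7 that was tested. The part of either marker list in the integrin results was not tested.

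**Figure D2:**
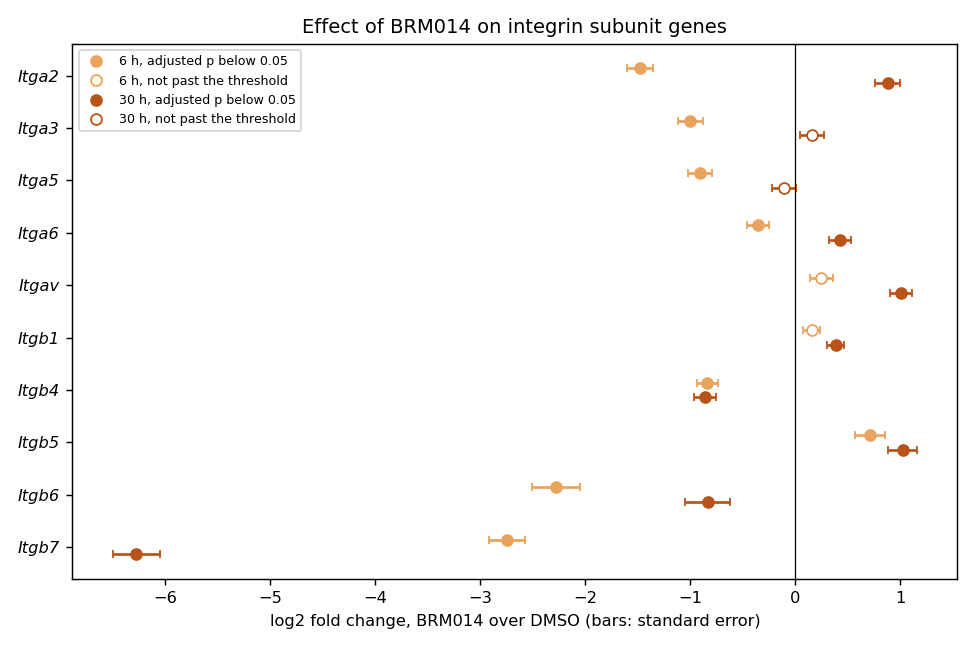
Log2 fold change (BRM014 over DMSO, 6 h and 30 h) of each integrin gene, with bars of 1 SE. Filled points have an adjusted p below 0.05 and open points do not. All 5 alpha chains lie higher at 30 h than at 6 h, Itgb4 is at nearly the same value at both times, and Itgb7 is lowest at both.

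Without BRM014, most of these genes also differed between the times. Time in culture, length of DMSO exposure and other differences between the times cannot be told apart here. Between 6 h and 30 h in DMSO, 6 of the 10 fell (Itga2, Itga3, Itga5, Itga6, Itgb1 and Itgb7) and 1 rose (Itgb5), against 17.2% and 18% of all tested genes. With BRM014, 6 rose (Itga2, Itga3, Itga5, Itgav, Itgb5 and Itgb6) and 2 fell (Itgb1 and Itgb7), against 19.6% and 16.9% of all. These comparisons use the same libraries as the comparisons with BRM014 and are not independent of them. Itga3 fell by 0.62 in DMSO (adjusted p = 0.00141) and rose by 0.54 in BRM014 (adjusted p = 0.00295). Itga6 fell by 0.98 in DMSO (adjusted p = 3.36e-05) and was at -0.20 in BRM014 (adjusted p = 0.142). Itgb7 fell by 0.67 in DMSO (adjusted p = 0.00573) and by 4.20 in BRM014 (adjusted p = 1.57e-07). Itgav was at -0.26 in DMSO (adjusted p = 0.0799) and rose by 0.50 in BRM014 (adjusted p = 0.0033), and Itgb6 was at -0.47 in DMSO (adjusted p = 0.098) and rose by 0.98 in BRM014 (adjusted p = 0.00544).

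Several of these calls over time rested on single libraries. In DMSO, leaving out library 1 of DMSO 6 h ended the calls of Itga5 (-0.35, adjusted p = 0.107), Itgb5 (0.42, 0.0872) and Itgb7 (-0.57, 0.0654) and brought a call for Itgb6 (-0.76, 0.0197). Leaving out library 2 of DMSO 30 h ended the call of Itga5 (-0.38, adjusted p = 0.0576) and brought one for Itgav (-0.36, 0.0424). In BRM014, the call of Itga5 ended without library 1 of BRM014 6 h (0.29, adjusted p = 0.2) or library 2 of BRM014 30 h (0.26, 0.161), and that of Itgb6 without library 1 of BRM014 6 h (0.86, 0.0586) or library 1 of BRM014 30 h (0.68, 0.0683).

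The balance of partners was read as the log2 ratio of alpha to beta counts within a library, which does not depend on the scaling between libraries. The ratios are given as values, and no test was run on them. An exact permutation test of 2 against 2 libraries cannot go below p = 0.333. A lack of overlap between groups is thus a description only. For Itga2 to Itgb1, the ratio was -4.36 and -4.42 in DMSO and -5.94 and -6.11 in BRM014 at 6 h, a 3.1-fold lower ratio. At 30 h it was -4.98 and -4.79 in DMSO and -4.41 and -4.36 in BRM014, which is 1.41-fold higher. Relative to their common partner, the laminin and fibronectin chains were also lower at 6 h, by 2.22-fold for Itga3, 2.1-fold for Itga5 and 1.43-fold for Itga6, with no overlap between groups. At 30 h the Itga5 ratio was 1.42-fold lower, while the Itga6 ratio overlapped between the groups. The mean Itga3 ratio was 1.17-fold lower at 30 h, but its groups nearly met (-0.502 and -0.715 in DMSO, -0.924 and -0.752 in BRM014). Itgav to Itgb1 overlapped at 6 h and was 1.54-fold higher at 30 h.

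Among the pairs made with other beta chains of the 10 genes, Itgav and Itgb6 diverged most. Ratios to beta chains outside the 10, such as Itgav to Itgb3, were not part of this ranking. Their ratio was 2.32 and 1.82 in DMSO and 4.66 and 4.47 in BRM014 at 6 h, and 2.10 and 2.36 in DMSO and 3.74 and 4.44 in BRM014 at 30 h. The excess of Itgav over Itgb6 was thus 5.64-fold higher with BRM014 at 6 h and 3.63-fold higher at 30 h. Itgav and Itgb5 stayed closer: the ratio was 1.37-fold lower with BRM014 at 6 h and overlapped at 30 h, where both genes rose. For the hemidesmosome pair, Itga6 to Itgb4 was 0.31 and 0.14 in DMSO and 0.72 and 0.69 in BRM014 at 6 h, and -0.88 and -0.76 in DMSO and 0.33 and 0.60 in BRM014 at 30 h. In DMSO at 30 h Itgb4 thus had more counts than Itga6, and in the other 3 groups it had fewer, with a 2.44-fold gap between the 30 h groups.

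**Figure D3:**
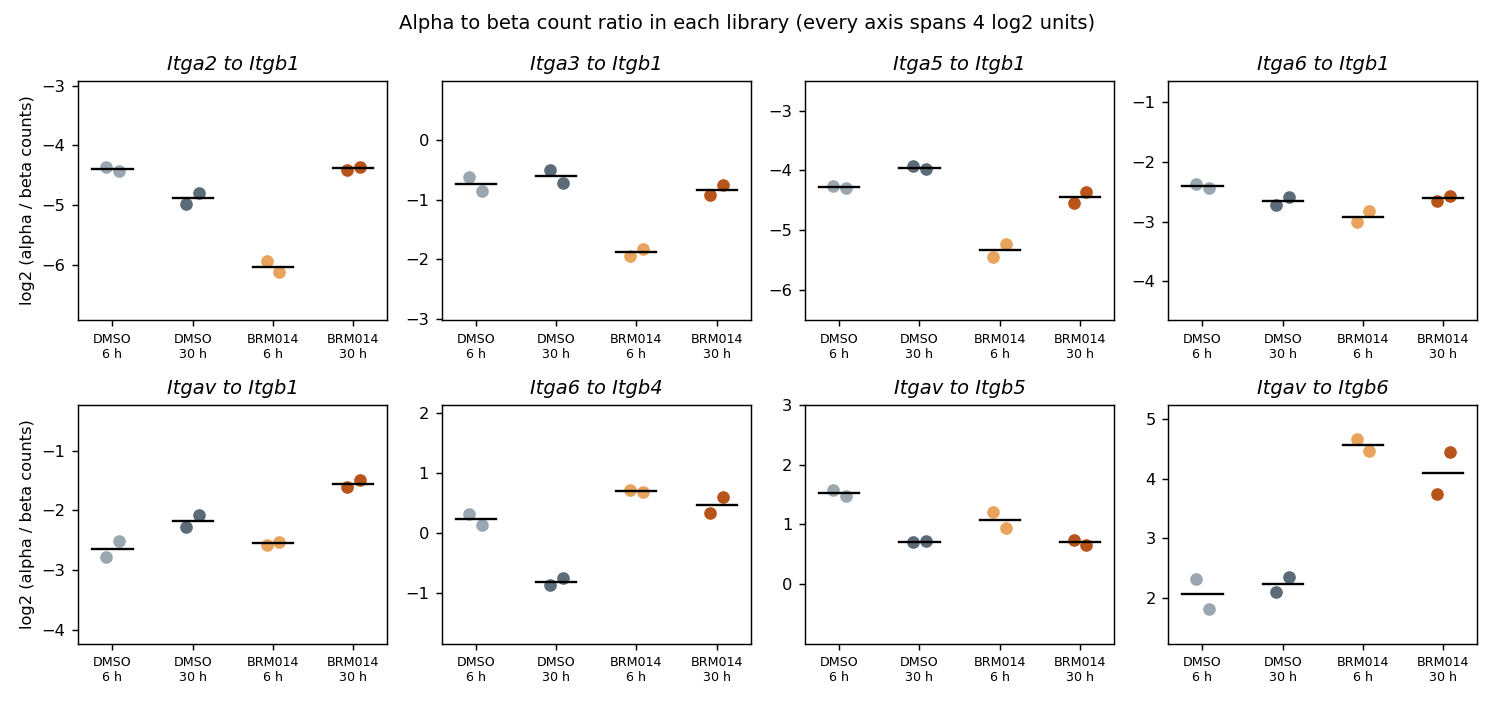
Log2 ratio of alpha to beta counts for 8 known heterodimers in every library, by treatment and time. Points are libraries, lines are group means, and every axis spans 4 log2 units. The ratios of Itga2, Itga3 and Itga5 to Itgb1 are lower with BRM014 at 6 h, and the ratio of Itgav to Itgb6 is higher at both times.

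Levels of different genes were compared per kilobase of merged exons, taken from GENCODE on GRCm38 because the authors' annotation on mm9 was not used here, so the lengths are approximate. In DMSO at 6 h, Itgb1 was highest at 313.2 ± 7.78 CPM per kilobase (SD, n = 2), followed by Itga3 at 137.8 ± 19.2, Itgb7 at 95.3 ± 7.22 and Itga6 at 51.89 ± 2.66. Below them came Itgb4 at 30.35, Itgav at 27.1, Itgb5 at 19.61, Itga5 at 14.13, Itga2 at 8.0 and Itgb6 at 7.73 CPM per kilobase, and among neighbours in this order only Itga2 and Itgb6 overlapped in their libraries. Itgb7 was thus the third of the 10 in both DMSO groups, the seventh with BRM014 at 6 h and the tenth at 30 h, where it measured 0.83 CPM per kilobase. Of the summed level of the 5 beta genes, Itgb7 made up 20.4% and 19.1% in DMSO at 6 h and 30 h, and 3.44% and 0.255% in BRM014. Itgb5 moved the other way, from 4.21% to 9.14% in DMSO and from 7.76% to 17.9% in BRM014. With BRM014 at 30 h the order was Itgb1 at 245.9, Itga3 at 100.1, Itgb5 at 58.4, Itgav at 45.47, Itga6 at 35.23 and Itgb4 at 17.43 CPM per kilobase, ahead of Itga5, Itga2, Itgb6 and Itgb7, with no overlap between neighbours. Among neighbours in the other orders, Itgb5 and Itga6 overlapped in DMSO at 30 h and Itgav and Itgb5 in BRM014 at 6 h.

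**Figure D4:**
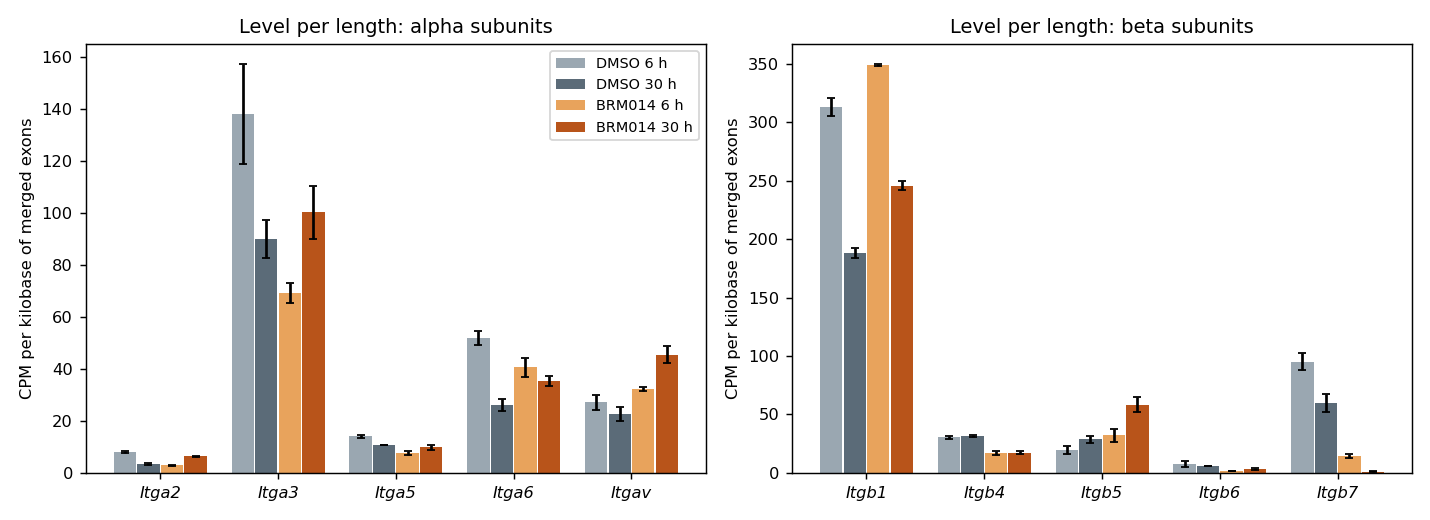
Level of each integrin gene per kilobase of merged exons in the 4 groups, in CPM per kilobase on a linear axis. Bars are means of 2 libraries with their SD. Itgb1 is highest in every group, and Itgb7 drops from the third place in DMSO to the last with BRM014 at 30 h.

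For the 3 genes with the largest fold changes, the genes with the most similar profile were taken by Pearson's r of log2 CPM over the 8 libraries, among 9756 genes. The 8 points share libraries, groups and scaling, so r is a description. Itgb7 was most like Serpinb9b (r = 0.9979), Hgfac (r = 0.9958) and Cdkn2c (r = 0.9942). The likeness is one of shape, not of size: the log2 fold changes at 6 h and 30 h were -2.19 and -4.49 for Serpinb9b, a serpin, -1.56 and -3.30 for Hgfac and -0.50 and -1.11 for Cdkn2c. Itgb6 was most like Krt20, a keratin (r = 0.9817), Wisp1 (r = 0.9659) and Ikbkg (r = 0.9631), and Itga2 was most like Baiap2l1 (r = 0.9655), Smg8 (r = 0.9632) and Ctbp2 (r = 0.9443). Krt20 was at -1.40 and -0.83, Wisp1 at -2.11 and -1.24, and Ikbkg at -1.55 and -0.88. The changes of the genes like Itga2 were much smaller than its own, at -0.36 and 0.15 for Baiap2l1, -0.21 and 0.15 for Smg8, and -0.18 and 0.17 for Ctbp2.

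Of 17 other integrin genes listed, 6 were tested, and all but Itgb3 had at most 12.91 CPM in a library. At 6 h 2 of the 6 fell and none rose, against 14.4% and 9.35% of all tested genes. Itgb2, the beta chain of the leukocyte integrins, fell by 3.18 (adjusted p = 0.000617), and Itga7, a laminin receptor chain of muscle, fell by 2.68 (adjusted p = 0.00224). At 30 h 5 of the 6 were called lower and Itga2b, the platelet chain, higher, against 19.1% and 16.8% of all tested genes. The log2 fold changes at 30 h were -1.59 for Itga1, a collagen receptor chain (adjusted p = 0.00273), -1.30 for Itgb2 (0.0493), -1.22 for Itga7 (0.0221) and 1.25 for Itga2b (0.0241). The other called genes, Itga10 (-1.14, adjusted p = 0.0246) and Itgb3, are named after their values were seen. The 30 h calls of the low-count genes depended on the libraries and on the tool. DESeq2 left 2 called lower and none higher: it ended the calls of Itgb2 (adjusted p = 0.141), Itga7 (0.123), Itga10 (0.0989) and Itga2b (0.0852). Scaling by ribosomal protein genes left 3 called lower and ended Itga10 (0.0579) and Itgb2 (0.0734). A filter of 1 CPM in at least 4 libraries left Itgb2, Itga7 and Itga2b untested. Without library 2 of DMSO 30 h none of the 5 low-count genes passed: Itga1 was at -0.79 (adjusted p = 0.0617), Itgb2 at -1.50 (0.0743), Itga7 at -1.18 (0.0908), Itga10 at -1.05 (0.106) and Itga2b at 0.77 (0.215). Leaving out any single library ended the call of Itgb2 (adjusted p = 0.0615 to 0.199). Itga7 was also lost without library 1 of DMSO 30 h (-1.25, adjusted p = 0.0645), library 1 of BRM014 30 h (-1.30, 0.0564) or library 2 of BRM014 30 h (-1.10, 0.131), and Itga2b without library 1 of BRM014 30 h (1.13, 0.0945) or 2 (1.38, 0.0598). Itga10 was lost without library 1 of DMSO 30 h (-1.21, adjusted p = 0.0533) or library 2 of BRM014 30 h (-0.90, 0.175). Itgb3, the beta chain that pairs with Itgav in vitronectin binding, measured 59.25 and 62.96 CPM in DMSO and 32.74 and 32.95 CPM in BRM014 at 30 h. It fell by 0.90 there (SE 0.15, adjusted p = 0.000348), whereas at 6 h its groups overlapped (0.18, adjusted p = 0.446).

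Of 35 listed integrin ligands, 25 were tested. At 6 h 4 rose and 8 fell, against 9.35% and 14.4% of all tested genes, with a median of -0.12. The count that fell was 4 without library 1 of DMSO 6 h and 4 without library 2 of BRM014 6 h. The matrix genes Col1a1 and Tnc had log2 fold changes of -2.11 (adjusted p = 0.0362) and -1.43 (0.00559), Icam1, a ligand of leukocyte integrins, fell by 1.83 (0.000162), and the growth factor Tgfb3, whose latent form binds alphav integrins, rose by 1.20 (0.0016). The other 3 that rose, picked with their values known, were Thbs1 (0.83), Cyr61 (0.80) and the laminin chain Lamb2 (0.60). The Col1a1 call was lost without either library 2 of DMSO 6 h (-1.30, adjusted p = 0.326), library 1 of BRM014 6 h (-1.73, 0.192), library 2 of BRM014 6 h (-2.74, 0.104) or library 1 of BRM014 30 h (-2.11, 0.0503), and that of Tnc without library 1 of DMSO 6 h (-0.95, 0.106) or library 2 of BRM014 6 h (-1.18, 0.0884). With all libraries, Col1a1 also missed the threshold with ribosomal protein scaling (-2.07, adjusted p = 0.0616), DESeq2 (-2.16, 0.0607) and limma-voom (-1.94, 0.0532), at 2 to 20 counts per library at 6 h.

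At 30 h 12 ligand genes rose and 5 fell, against 16.8% and 19.1% of all tested genes, with a median of 0.24. The count that fell was 3 without library 2 of BRM014 30 h and 3 with a filter of 1 CPM in at least 4 libraries. The laminin chain Lamb1 measured 20.65 and 17.76 CPM in DMSO and 59.01 and 70.39 CPM in BRM014 and rose by 1.76 (adjusted p = 3.21e-07). The other 11 that rose, picked with their values known, were the laminin chains Lamc3 (1.49), Lamb2 (0.79), Lama5 (0.71) and Lamc1 (0.46), the basement membrane collagens Col4a2 (1.08) and Col4a1 (1.00), the secreted proteins Cyr61 (1.17) and Thbs1 (0.91), Tgfb3 (0.87), fibronectin (Fn1, 0.80) and E-cadherin (Cdh1, 0.67). The Lamc1 call was lost without library 1 of DMSO 30 h (0.28, adjusted p = 0.107) or library 2 of BRM014 30 h (0.34, 0.121). Genes called lower were the laminin chain Lama4 (-2.87, adjusted p = 0.00997), with 10 reads and 16 reads in the DMSO libraries and 1 and 3 in those of BRM014, Tnc (-2.06, 0.00145), Col1a1 (-2.06, 0.00527), Icam1 (-1.36, 0.000761) and the laminin chain Lamb3 (-0.38, 0.0064), the last 2 named after their values were seen. Lamb3 missed the threshold with ribosomal protein scaling (-0.30, 0.134). Lama4 was lost without library 2 of DMSO 30 h (-2.67, adjusted p = 0.0634), library 1 of BRM014 30 h (-2.61, 0.0578) or library 2 of BRM014 30 h (-3.40, 0.0625) and with DESeq2 (-2.99, 0.1), and Col1a1 without library 2 of BRM014 30 h (-1.98, 0.0538).

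Of 36 listed genes of adhesion adaptors, kinases and other proteins that bind integrin tails, 34 were tested. At 6 h 2 rose and 13 fell, against 9.35% and 14.4% of all tested genes, with a median of -0.225. The count that fell was 7 without library 1 of BRM014 6 h, 6 without library 2 of BRM014 6 h and 6 with ribosomal protein scaling. The count that rose was 1 without library 2 of DMSO 6 h or library 1 of BRM014 6 h, and 4 without library 1 of DMSO 6 h or either library of DMSO 30 h. It was 4 with DESeq2, without a filter and with only the 6 h libraries, and 5 with library totals. The lowest log2 fold changes among called genes were those of the tensins Tns1 (-1.14, adjusted p = 0.0338) and Tns2 (-1.10, 7.08e-06), the actin crosslinker Flna (-0.90, 3.5e-05) and the adaptor Bcar1 (-0.72, 0.000267). The genes that rose, picked with their values known, were the talin Tln2 (0.59) and the kindlin Fermt2 (0.48). The Tns1 call was lost without library 2 of DMSO 6 h (-0.73, adjusted p = 0.274), library 1 of BRM014 6 h (-0.87, 0.215) or library 2 of BRM014 6 h (-1.51, 0.061), with ribosomal protein scaling (-1.11, 0.0655) and with limma-voom (-1.12, 0.0599). At 30 h 11 rose and 6 fell, against 16.8% and 19.1% of all tested genes, with a median of 0.11. The tensin Tns4 fell by 3.85 (adjusted p = 0.00632) at 1 to 30 counts per library, and the kindlin Fermt3 rose by 1.02 (0.0368) and the kinase Fyn by 0.97 (0.00955). The calls of Tns4 (-2.41, adjusted p = 0.113) and Fyn (0.73, 0.065) were lost without library 1 of DMSO 30 h, that of Tns4 also without library 2 of BRM014 30 h (-4.00, 0.0637), and that of Fermt3 without library 2 of DMSO 30 h (0.77, 0.2) or library 1 of BRM014 30 h (0.81, 0.166) and with DESeq2 (1.04, 0.0624).

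Of 3 tested hemidesmosome genes beside Itga6 and Itgb4, the plaque linker Plec fell by 1.05 at 6 h (adjusted p = 2.06e-05) and the linker Dst rose by 0.67 at 6 h (0.00542) and by 1.61 at 30 h (3.64e-06). At 30 h Plec was at -0.21 and did not pass (adjusted p = 0.161). The tetraspanin Cd151 was at -0.27 at 6 h (adjusted p = 0.074) and fell by 0.30 at 30 h (adjusted p = 0.0369). The effects at 6 h and 30 h were not called different for Cd151 (-0.03, adjusted p = 0.944). They were called different for Plec (0.84, adjusted p = 0.00668) and Dst (0.94, 0.0175). This call of Dst was lost with ribosomal protein scaling (0.97, adjusted p = 0.0938) and when some single libraries were left out. Dst at 6 h missed the threshold without library 2 of BRM014 6 h (0.52, adjusted p = 0.0857). Cd151 missed it without library 1 of DMSO 30 h (-0.20, adjusted p = 0.222), library 1 of BRM014 6 h (-0.30, 0.0645), library 2 of BRM014 6 h (-0.30, 0.0637) or library 2 of BRM014 30 h (-0.18, 0.292). It also missed it with library totals (-0.27, adjusted p = 0.0635), with ribosomal protein scaling (-0.21, 0.194) and with only the 30 h libraries in the fit (-0.29, 0.0776).

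**Figure D5:**
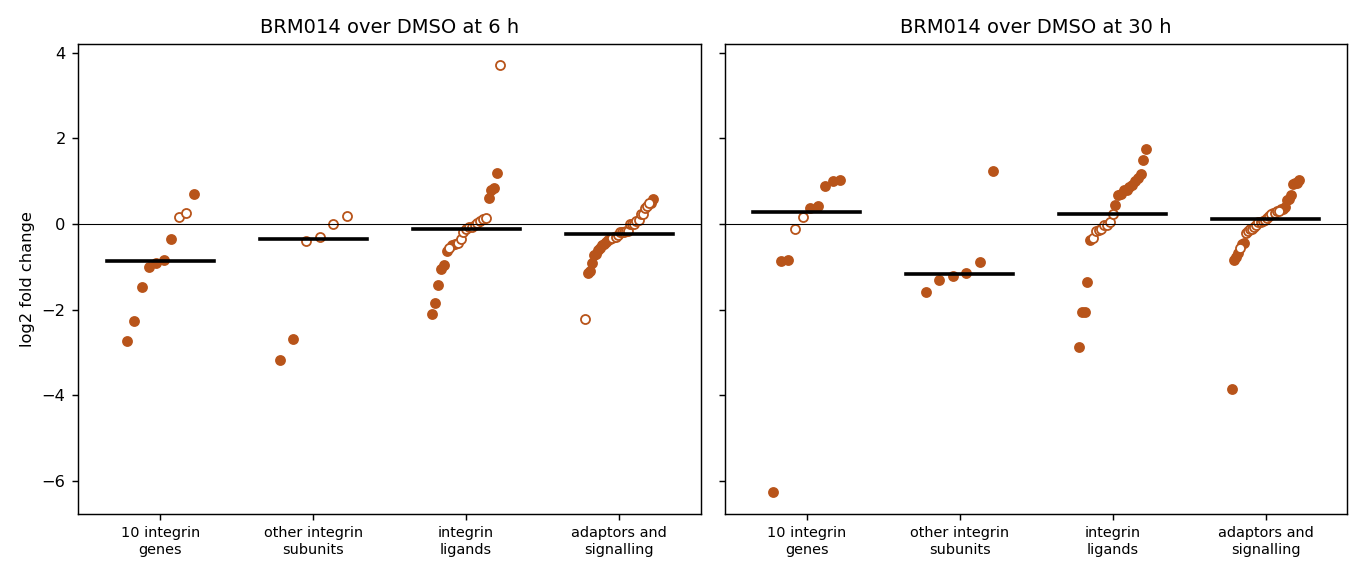
Log2 fold change (BRM014 over DMSO, 6 h and 30 h) of the tested genes of each integrin-related list. Points are genes, filled where the adjusted p is below 0.05, and lines are medians. The medians of the ligands and of the adaptors lie below 0 at 6 h, at -0.12 and -0.225, and above 0 at 30 h, at 0.24 and 0.11. That of the other integrin subunits lies below 0 at both times, at -0.35 at 6 h and -1.18 at 30 h.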

How the data were processed

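The deposited values were raw read counts by gene symbol for 8 libraries of total RNA. Per the submitters' processing notes, the authors used build mm9, Subread, featureCounts and SAMtools 0.1.19, in an order and with an annotation and strand setting not given in the sources used here. Per the labels, libraries were stranded and sequenced as single reads. No normalization was seen in the counts.

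Genes were filtered with filterByExpr and scaled by TMM (factors 0.935 to 1.05), and 1 quasi-likelihood fit in edgeR 4.0.16 (R 4.3.3) held the 4 group means of all 8 libraries, with 4 residual degrees of freedom and a biological coefficient of variation of 9.3%. Tests were 2-sided, and every adjusted p is a Benjamini-Hochberg p from edgeR over all tested genes of the comparison, or from DESeq2 1.42.0 or limma 3.58.1 where named. The fit was tested on simulated data. Each SE is the log2 fold change divided by the square root of F. Replicates differed by more than sampling noise (a chi-square of 6.72 to 17.9 times its degrees of freedom), so none was counted as a copy.

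The members and lists were chosen with earlier results of these data known. All 10 integrin genes are named. Of each other list, the genes past the threshold with the largest log2 fold changes are named, at most 4 per comparison, with Itga4 and Itgae as partners of Itgb7, and for 3 genes the 3 most similar profiles (mean log2 CPM at least 2, prior count 2). Further genes of the lists are named after their values were seen, where the text says so. Some genes that these rules cover are not reported here. The alternatives were other scalings (median-of-ratios factors, library totals, ribosomal protein genes), other filters, DESeq2, limma-voom, a replicate block, only the libraries of a comparison, and leaving out each library.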

Additional observations from a re-analysis of the deposited data

Results flagged for a closer look

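For 7 of the 10 integrin genes the effect of BRM014 differed between the 2 times by the test of the difference itself, the contrast of the 30 h effect minus the 6 h effect in edgeR's quasi-likelihood fit. The difference on the log2 scale was 2.36 for Itga2 (adjusted p = 1.38e-05), 1.15 for Itga3 (0.000986), 0.80 for Itga5 (0.0104), 0.78 for Itga6 (0.00575), 0.76 for Itgav (0.0101), 1.44 for Itgb6 (0.014) and -3.53 for Itgb7 (2.25e-05). In 6 of these the BRM014 effect was more positive at 30 h, and in Itgb7 it was more negative. The sign of the effect itself turned in Itga2 and Itga6, with calls at both times. The 6 h call of Itga6 was lost without library 1 of DMSO 6 h or library 1 of BRM014 6 h. It was also lost with library totals and with ribosomal protein scaling. For the difference of the effects, the calls of Itga5, Itgav and Itgb6 were lost when single libraries were left out. Groups of 2 libraries are too small to look for a library far from the others.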

How the results depend on the processing

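No called value of an integrin gene changed sign under any alternative run. Of the values of the 10 genes under the alternatives, 161 at 6 h kept their side of the threshold, 5 gained a call and 4 lost one, and at 30 h 169 kept it and 1 lost a call. For the difference of the effects 151 kept it and 9 lost a call. With library totals, genes called higher at 6 h were 1691 instead of 1106, of which 3 instead of 1 were integrin genes, and 45.1% instead of 60.7% of called genes were lower. Only the libraries of the comparison gave 2 integrin genes higher at 6 h. Scaling by ribosomal protein genes gave fewer lower calls, 1117 instead of 1709 at 6 h, 1394 instead of 2258 at 30 h (42.4% instead of 53.2% of calls), 948 instead of 2034 over time in DMSO (33.6% instead of 48.8%, and 34.1% with library totals) and 796 instead of 1999 over time in BRM014 (25.6% instead of 46.3%). In the last it moved the median of all genes from 0.009 to 0.114. For the difference of the effects it gave 289 higher and 115 lower (28.5% instead of 39.9% lower) instead of 460 and 306, and no filter gave 719 and 590. Without filter, Itgb6 passed over time in DMSO (-0.46, adjusted p = 0.00478), and with DESeq2 Itgb7 did not (-0.66, 0.107). With ribosomal protein scaling Itga5 did not (-0.34, 0.101). The causes were not tested.

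Leaving out 1 library at a time gave 416 to 1415 genes higher and 999 to 1874 lower at 6 h, with 1 to 2 and 6 to 7 integrin genes, and 1460 to 2004 higher and 1608 to 2217 lower at 30 h, with 5 and 2 to 3. For the difference of the effects, 200 to 533 were higher and 130 to 388 lower, with 3 to 6 and 1 integrin genes. Over time in DMSO, 1293 to 2160 were higher and 1038 to 2097 lower, with 0 to 1 and 5 to 6, and in BRM014 1229 to 2492 and 998 to 2222, with 4 to 6 and 2. An arm left with 1 library was assumed to vary like the others.

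With the replicate number as a block, Itgav passed at 6 h (0.25, adjusted p = 0.04), making 2 integrin genes higher, and over time in DMSO (-0.26, 0.0265), 5 adaptor genes were higher at 6 h, and the difference of the effects gave 726 genes higher and 511 lower. Deviations of same-numbered libraries from their group means correlated by 0.011 to 0.201, and the labels tie the numbers to no shared day or culture, so the numbers were not taken as pairs. Counts of 57 and 43 limit the precision of Itgb7 with BRM014 at 30 h, and counts under 10 in a library that of Itga7, Itgb2, Lama4, Tns4, Col1a1, Lcp1 and Krt14.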
